A study of Arabidopsis thaliana with 8 samples.

Results

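The heat shock transcription factors (HSFs) followed here are 10 loci of *Arabidopsis thaliana*, chosen by locus identifier: HSFA1A (AT4G17750), HSFA1B (AT5G16820), HSFA1D (AT1G32330), HSFA2 (AT2G26150), HSFA3 (AT5G03720), HSFA7A (AT3G51910), HSFA7B (AT3G63350), HSFB1 (AT4G36990), HSFB2A (AT5G62020) and HSFB2B (AT4G11660). They are 10 of the 25410 loci that the array represents, and 14 of its 43603 probes belong to them. Chromosome 1 and chromosome 2 carry 1 of the loci each, chromosome 3 carries 2, and chromosomes 4 and 5 carry 3 each. Transcripts were measured on 8 single-colour arrays in 4 groups of 2: *bam1* heat, Col-0 heat, *bam1* control and Col-0 control. Col-0 is the wild type, and *bam1* is a homozygous T-DNA insertion line in the gene of β-amylase 1 (BAM1), a chloroplast enzyme that degrades starch in guard cells. Heat-treated plants spent 3 d at 32 °C by day and 28 °C by night, whereas controls stayed at 22 °C and 18 °C, and all plants were 5 weeks old and grown with 12 h of light. Each array carried RNA of a separate biological sample of leaf epidermis blended to enrich stomata, pooled from 5 to 8 plants according to the extraction notes (the series' design note counts leaves in place of plants). A single insertion line stood for the mutant, so line and gene cannot be told apart.

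HSFs are DNA-binding proteins that recognise heat shock elements in promoters and switch on chaperone genes when proteins unfold. In Arabidopsis the class A1 factors are constitutively made and held inactive by HSP70 and HSP90 chaperones. Once released they induce further activators of class A, such as HSFA2, which prolong the response, and class B factors, which lack the activation domain and mostly act as repressors. Guard cells are the pair of cells around each stomatal pore, and their movements set the transpiration that cools the leaf.

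Values are normalized log2 signals, in which 1 unit is 2-fold, and they may be compared between arrays for 1 probe but not between probes. A gene was called changed at an adjusted P below 0.05 (limma, Benjamini-Hochberg over 29615 tested probes) together with a difference above 2-fold. The median signal before normalization was between 99.9 and 218 on the 8 arrays, and 61.3% to 70.8% of probes were well above background. Slide 1 and slide 2 held 1 array of every group each. BAM1 itself, the check of the genotype, read 6.83 and 7.68 in *bam1* heat, 11.72 and 12.22 in Col-0 heat, 6.81 and 6.87 in *bam1* control and 11.82 and 11.19 in Col-0 control arrays. The libraries thus matched their genotype labels, although with 2 arrays per group even this difference of −4.72 under heat had an adjusted P of 0.134. All 8 guard cell markers (KAT1, GORK, SLAC1, MYB60, FAMA, HT1, TGG1 and OST1) were well above background on every array, as were the 4 mesophyll, 4 vascular and 4 epidermis markers. The log2 of the summed normalized signal of the guard cell markers lay between 15.36 and 15.49 in *bam1* heat, 15.62 and 15.77 in Col-0 heat, 15.81 and 16.27 in *bam1* control and 16.43 and 16.49 in Col-0 control arrays. That of the mesophyll markers lay between 18.73 and 18.88 in *bam1* heat, 18.86 and 18.99 in Col-0 heat, 18.98 and 19.13 in *bam1* control and 19.05 and 19.06 in Col-0 control arrays. That of the vascular markers was lower under heat in *bam1* (14.515 to 14.704, control 14.982 to 15.006) and in Col-0 (14.633 to 14.644, control 14.717 to 15.373). Singly, SUC2 was called lower (−1.28 in *bam1* and −1.34 in Col-0), whereas SWEET12 was called higher (1.71 and 1.88). The median difference of the 4 vascular markers was 0.74 in *bam1* and 0.19 in Col-0. The log2 sum of the epidermis markers was higher under heat in *bam1* (16.563 to 16.755, control 15.96 to 16.093) and overlapped in Col-0. Of these 4 markers only LTP1 had a positive heat difference (1.08 in *bam1* and 0.50 in Col-0). The median difference of the 4 was −0.29 in *bam1* and −0.32 in Col-0. The sum of the guard cell markers was thus lower in heat than in control arrays of each genotype and lower in *bam1* than in Col-0 arrays at each temperature. Of the 8 guard cell markers, TGG1 made up most of this sum, with group means from 15.09 to 16.11. No other marker of the 8 had a group mean above 12.52. Singly, 0 of the 8 were called lower under heat in *bam1*, where GORK (0.41) and FAMA (0.46) had positive differences. In Col-0, 3 of the 8 (KAT1, SLAC1 and HT1) were called lower. Of all tested probes, 11.4% were called lower in *bam1* and 10.2% in Col-0, and 11% and 11.4% were called higher. The part of the cell type markers in the results on HSFs was not tested. In such bulk RNA, fewer cells of a type and less RNA per cell cannot be told apart.

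At these limits 4 HSFs were called higher under heat in *bam1* and 6 in Col-0, whereas HSFA1B stayed within the spread of its arrays. A tested probe was found for 9 of the loci, and all of these were well above background on all 8 arrays. In *bam1*, 4 of the 9 were called higher (HSFA2, HSFA3, HSFA7A and HSFB1) and 0 lower, against 11% of all tested probes called higher and 11.4% called lower. In Col-0, 6 of the 9 were called higher (the same 4 with HSFB2A and HSFB2B) and 0 lower, against 11.4% of probes called higher and 10.2% called lower. HSFA1A, HSFA1D, HSFB2A and HSFB2B in *bam1*, and HSFA1D in Col-0, had an adjusted P below 0.05 and missed only the 2-fold limit. For the difference of the heat responses, 0 of the 9 were called, against 0.00338% of probes. The median difference over the 9 loci was 0.99 in *bam1* and 1.91 in Col-0, beside medians of 0.01 and 0.01 over all tested probes. Quantile normalization gives all arrays the same distribution, which tends to keep medians over all probes near 0. In both genotypes, 8 of the 9 had both heat arrays above both control arrays, whereas 34.7% of probes in *bam1* and 36.3% in Col-0 did so.

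**Figure D1:**
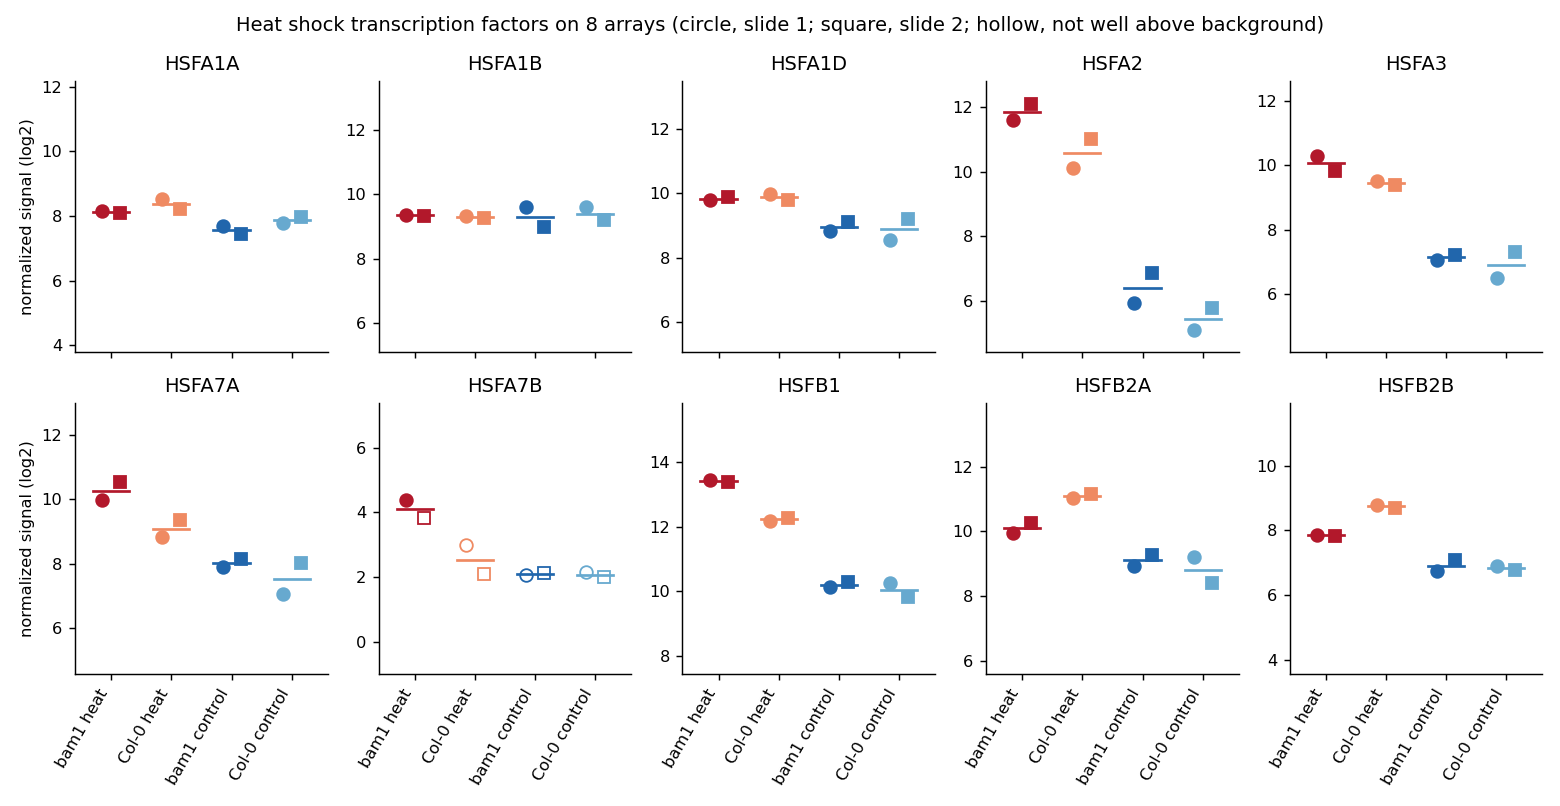
Normalized log2 signal (y axis, the same height in log2 units in every panel) of the 10 HSFs on each array, by group (x axis); circles are slide 1, squares slide 2, bars the group mean of 2 arrays, and hollow points were not well above background. HSFA1A, HSFA1D, HSFA2, HSFA3, HSFA7A, HSFB1, HSFB2A and HSFB2B have all 4 heat arrays above all 4 control arrays. HSFA1B does not, and HSFA7B was well above background on 1 array only.

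The class A1 factors, the constitutive master activators of the heat response, moved by less than 2-fold. HSFA1A gave 8.17 and 8.11 in *bam1* heat, 8.53 and 8.23 in Col-0 heat, 7.70 and 7.43 in *bam1* control and 7.78 and 7.97 in Col-0 control arrays. All heat arrays were therefore above all control arrays, by 0.57 ± 0.18 (SE) in *bam1* (adjusted P = 0.0475) and by 0.50 ± 0.18 in Col-0 (adjusted P = 0.0710), and neither difference was called. A second, dimmer HSFA1A probe differed by 0.74 in *bam1* (adjusted P = 0.0892) and by 0.90 in Col-0 (adjusted P = 0.0520).

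HSFA1B was 9.36 and 9.32 in *bam1* heat, 9.33 and 9.26 in Col-0 heat, 9.61 and 8.99 in *bam1* control and 9.59 and 9.20 in Col-0 control arrays. Its heat arrays lay inside the range of its controls, and the difference of 0.04 in *bam1* had a 95% interval of −0.55 to 0.62. In Col-0 the difference was −0.10, with an interval of −0.68 to 0.49, so that a change of 2-fold in either direction lies outside both intervals. The second HSFA1B probe differed by 0.30 in *bam1* and 0.13 in Col-0, again with overlapping groups.

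HSFA1D read 9.79 and 9.88 in *bam1* heat, 9.99 and 9.78 in Col-0 heat, 8.84 and 9.10 in *bam1* control and 8.56 and 9.20 in Col-0 control arrays. Heat and control arrays did not overlap in either genotype. The difference was 0.86 ± 0.24 in *bam1* (adjusted P = 0.0318) and 1.00 ± 0.24 in Col-0 (adjusted P = 0.0200), the second being 1.999-fold and just short of the limit. Scaling each array to its 75th percentile in place of quantile normalization took it past 2-fold (1.01), as did leaving out Col-0 control replicate 2 (1.32, adjusted P = 0.0114).

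HSFA2, the activator that sustains chaperone expression during prolonged or repeated heat, had the widest span among the 10. Its signal was 11.61 and 12.11 in *bam1* heat, 10.11 and 11.02 in Col-0 heat, 5.94 and 6.86 in *bam1* control and 5.10 and 5.78 in Col-0 control arrays. The 4 groups stood in the order *bam1* heat, Col-0 heat, *bam1* control, Col-0 control, with no overlap between neighbours. Heat against control gave 5.46 ± 0.45 in *bam1*, or 44.0-fold (adjusted P = 0.000539), and 5.12 ± 0.45 in Col-0, or 34.8-fold (adjusted P = 0.000749). Within slide 1 and slide 2 the differences were 5.67 and 5.25 in *bam1*, and 5.01 and 5.23 in Col-0. Array replicate 2 was the higher of the pair in every group, so that the spread of HSFA2 went with the slide. With a normexp background correction the differences were 4.10 in *bam1* and 3.38 in Col-0, both still called.

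HSFA3, an activator that the drought and heat factor DREB2A switches on, read 10.30 and 9.83 in *bam1* heat, 9.51 and 9.39 in Col-0 heat, 7.06 and 7.23 in *bam1* control and 6.52 and 7.32 in Col-0 control arrays. Heat arrays stood apart from control arrays, whereas the controls of both genotypes overlapped. The difference was 2.92 ± 0.29 in *bam1*, or 7.56-fold (adjusted P = 0.000978), and 2.52 ± 0.29 in Col-0, or 5.75-fold (adjusted P = 0.00167). The normexp correction gave 2.28 in *bam1* and 1.88 in Col-0, again called.

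HSFA7A belongs to a heat-inducible pair of class A factors that act under the A1 factors. It gave 9.98 and 10.53 in *bam1* heat, 8.83 and 9.36 in Col-0 heat, 7.89 and 8.17 in *bam1* control and 7.06 and 8.02 in Col-0 control arrays. The heat groups did not overlap each other or the controls, and the controls of the genotypes overlapped. The difference was 2.23 ± 0.37 in *bam1*, or 4.68-fold (adjusted P = 0.00548), and 1.55 ± 0.37 in Col-0, or 2.93-fold (adjusted P = 0.0199). The call in Col-0 was lost without Col-0 heat replicate 2 (1.29, adjusted P = 0.109) and without Col-0 control replicate 1 (1.07, adjusted P = 0.0737).

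HSFA7B, the other factor of the pair, was dim throughout: 4.39 and 3.83 in *bam1* heat, 2.98 and 2.09 in Col-0 heat, 2.05 and 2.12 in *bam1* control and 2.14 and 2.01 in Col-0 control arrays. Only *bam1* heat replicate 1 was well above background, so the probe was not tested. Against the lowest signal well above background on each *bam1* control array, the *bam1* heat mean was 1.06-fold higher. That is no lower bound, since *bam1* heat replicate 2 was itself not well above background. No fold is given for Col-0, where HSFA7B was not well above background on any array. With no filter on dim probes, limma called it higher under heat in *bam1* (2.03 ± 0.34, adjusted P = 0.0125) and not in Col-0 (0.46 ± 0.34, adjusted P = 0.437), from values mostly below background.

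HSFB1, a class B repressor that attenuates the heat response and is itself induced by heat, rose in both genotypes. Its brightest probe read 13.46 and 13.38 in *bam1* heat, 12.19 and 12.27 in Col-0 heat, 10.13 and 10.29 in *bam1* control and 10.27 and 9.84 in Col-0 control arrays. The 3 levels were separate: *bam1* heat above Col-0 heat, and Col-0 heat above the overlapping controls. Heat against control was 3.21 ± 0.18 in *bam1*, or 9.25-fold (adjusted P = 0.000208), and 2.18 ± 0.18 in Col-0, or 4.52-fold (adjusted P = 0.000671). The other probes of HSFB1 gave 3.17 and 2.94 in *bam1*, and 2.19 and 1.68 in Col-0, all called.

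HSFB2A, a class B factor closely related to HSFB2B, was 9.94 and 10.26 in *bam1* heat, 11.05 and 11.17 in Col-0 heat, 8.94 and 9.27 in *bam1* control and 9.20 and 8.42 in Col-0 control arrays. Here the Col-0 heat arrays were the highest, the *bam1* heat arrays came next, and the controls of both genotypes overlapped. The difference was 0.99 ± 0.29 in *bam1*, or 1.99-fold (adjusted P = 0.0354), which fell just short of the 2-fold limit. In Col-0 it was 2.30 ± 0.29, or 4.92-fold (adjusted P = 0.00206). Under 75th-percentile scaling the difference in *bam1* was 1.02 (adjusted P = 0.0318) and was called.

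HSFB2B, which like HSFB1 represses heat shock genes, read 7.85 and 7.83 in *bam1* heat, 8.79 and 8.70 in Col-0 heat, 6.73 and 7.09 in *bam1* control and 6.89 and 6.76 in Col-0 control arrays. The order of its groups was that of HSFB2A, with overlapping controls. Heat against control was 0.93 ± 0.17 in *bam1*, or 1.91-fold (adjusted P = 0.00733), and 1.91 ± 0.17 in Col-0, or 3.77-fold (adjusted P = 0.000758). Without *bam1* control replicate 2 the difference in *bam1* was 1.11 (adjusted P = 0.0115) and was called.

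**Figure D2:**
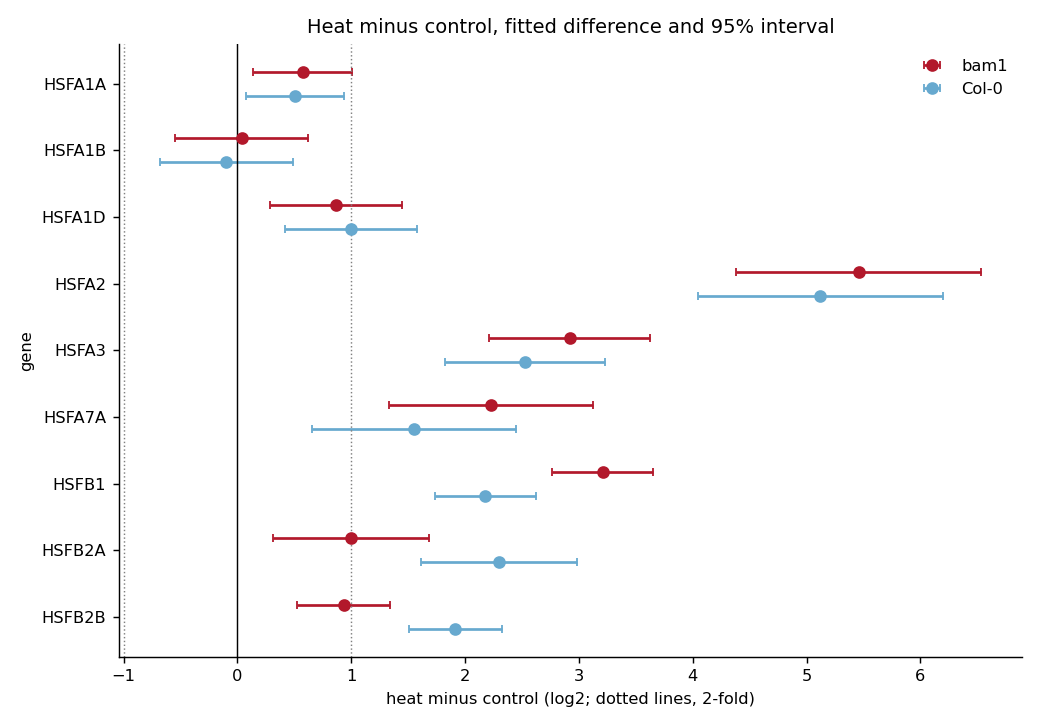
Heat minus control on the log2 scale (x axis) for the 9 tested HSFs (y axis), *bam1* above Col-0 in each pair; points are limma's fitted differences, bars their 95% intervals, and dotted lines mark 2-fold. HSFA2 lies farthest to the right in both genotypes at 5.46 and 5.12, HSFB1 is larger in *bam1* (3.21 against 2.18), and HSFB2A and HSFB2B are smaller in *bam1* (0.99 against 2.30, and 0.93 against 1.91).

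Under heat, *bam1* arrays were higher than Col-0 arrays for HSFA2, HSFA3, HSFA7A and HSFB1 and lower for HSFB2A, HSFB2B and HSFA1A, with no overlap between the groups. Groups did not overlap for 29.1% of all tested probes in this comparison. None of these differences was called by limma: 0 of the 9 loci and 0% of the 29615 probes passed. At an unadjusted P below 0.05 the counts were 5 of the 9 loci and 3.27% of probes. These comparisons of genotypes use the same heat arrays as the heat comparisons above, so that they are not separate evidence.

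The *bam1* minus Col-0 difference under heat was 1.30 for HSFA2 (95% interval 0.22 to 2.37), 1.16 for HSFA7A (0.26 to 2.05) and 0.62 for HSFA3 (−0.09 to 1.32). HSFB1 differed by 1.19, with an interval of 0.74 to 1.63, an unadjusted P of 0.000485 and an adjusted P of 0.526 (limma). Its other probes differed by 1.11 and 1.18, and the brightest probe by 1.27 within slide 1 and 1.11 within slide 2. HSFB2A and HSFB2B ran the other way. HSFB2A differed by −1.01 (interval −1.70 to −0.32), with −1.11 within slide 1 and −0.91 within slide 2. HSFB2B differed by −0.90 (interval −1.31 to −0.49), with −0.93 and −0.87 within the slides, an unadjusted P of 0.00142 and an adjusted P of 0.691 (limma). For the A1 factors the differences were −0.24 for HSFA1A, 0.04 for HSFA1B and −0.05 for HSFA1D, each with an interval that includes 0.

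Without stress, the fitted differences between the genotypes were under 2-fold for all 9 tested HSFs. With 2 arrays per group, this does not show that the genotypes were alike. The count called was 0 of 9 loci, against 0.00338% of probes, and 0 of 9 had an unadjusted P below 0.05 (limma), against 4% of probes. HSFA2 had the widest *bam1* minus Col-0 difference, at 0.96 with an interval of −0.12 to 2.03, and its *bam1* control arrays were both above its Col-0 control arrays. The differences of the other 8 loci ran between −0.31 for HSFA1A and 0.49 for HSFA7A. HSFA1A was the other locus without overlap, its *bam1* control arrays being lower, whereas 25.2% of all probes did not overlap.

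**Figure D3:**
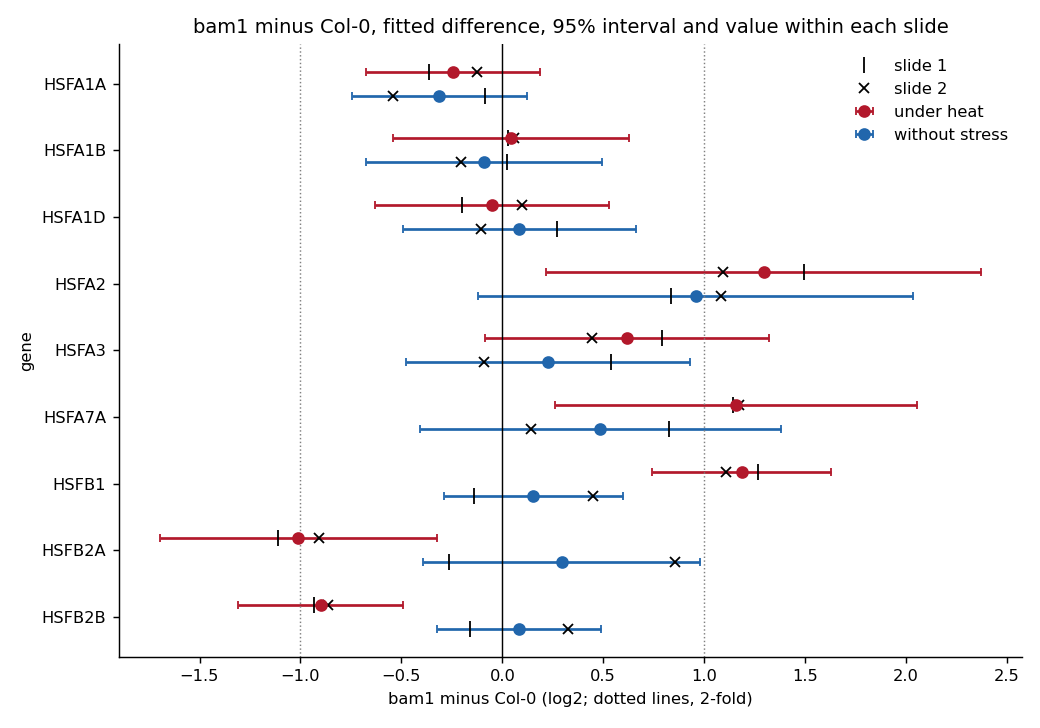
*bam1* minus Col-0 on the log2 scale (x axis) for the 9 tested HSFs (y axis), under heat above without stress; points are limma's fitted differences, bars 95% intervals, ticks and crosses the values within slide 1 and slide 2, and dotted lines 2-fold. Under heat HSFA2, HSFA7A and HSFB1 lie at 1.30, 1.16 and 1.19 and HSFB2A and HSFB2B at −1.01 and −0.90, with both slides on the same side of 0.

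Whether the response to heat itself differed was tested as the *bam1* response minus the Col-0 response over all 8 arrays. HSFB1 had the larger response in *bam1*, by 1.03 ± 0.26 (interval 0.41 to 1.66). The response of HSFB2A was smaller in *bam1*, by −1.30 ± 0.40 (interval −2.27 to −0.34), and so was that of HSFB2B, by −0.98 ± 0.24 (interval −1.56 to −0.41). The unadjusted P values were 0.00636, 0.0160 and 0.00543 in that order of genes, and each adjusted P was 0.9995 (limma), so that 0 of the 9 loci were called and 3 of the 9 were below an unadjusted P of 0.05, against 0.00338% and 2.75% of probes. For HSFA2 the responses differed by 0.34 ± 0.63, with an interval of −1.19 to 1.86, and for HSFA7A by 0.67 ± 0.53 (−0.59 to 1.94). HSFA3 gave 0.39 ± 0.41 and the A1 factors lay between −0.13 and 0.13.

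Of the 11 other HSFs of the family, 9 had a tested probe, and 1 was called in each genotype, HSFA6B, as higher under heat. That is 11.1% of the 9, near the 11% of all tested probes called higher in *bam1* and the 11.4% in Col-0. HSFA6B, a class A factor linked to abscisic acid signalling, read 5.97 and 4.05 in *bam1* heat, 4.95 and 4.81 in Col-0 heat, 2.16 and 3.01 in *bam1* control and 2.15 and 2.20 in Col-0 control arrays. It was not well above background on any control array and passed the filter through its heat arrays, of which 1 in *bam1* and 2 in Col-0 were well above background. Its fitted difference was 2.42 in *bam1* (adjusted P = 0.0211) and 2.70 in Col-0 (adjusted P = 0.0150). Against the lowest signal well above background on each control array, the heat mean was 1.97-fold higher in *bam1* and 1.32-fold higher in Col-0. Only the Col-0 value is a lower bound, since 1 *bam1* heat array was itself not well above background. The call in Col-0 was lost without either Col-0 heat array (adjusted P = 0.0710 and 0.0651) or either Col-0 control array (adjusted P = 0.0593 and 0.0557). In *bam1* it was lost without *bam1* control replicate 1 (1.99, adjusted P = 0.0965), and the fitted difference of 2.42 became 1.46 without *bam1* heat replicate 1. Without that control array HSFA4A was called in its place, as lower in *bam1* heat. Over the 9 loci the median heat difference was 0.36 in *bam1* and −0.15 in Col-0. HSFA1E, the fourth A1 factor, differed by 0.66 in *bam1* (adjusted P = 0.0232), under 2-fold, and HSFA8 by −0.65 in Col-0 (adjusted P = 0.0410), also under 2-fold. HSFA9, the seed factor, and HSFB3 were not tested. The loci other than HSFA6B and HSFA1E ran between −0.63 and 0.87 in *bam1*, and those other than HSFA6B between −0.68 and 0.48 in Col-0.

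Among 10 partners and upstream regulators of HSFs, 4 were called higher in both genotypes: HSP90.1, ROF2, MBF1C and ROF1. Of all tested probes, 11% were called higher in *bam1* and 11.4% in Col-0. In *bam1*, 1 partner was called lower (HSBP), against 11.4% of probes. HSP90.1, the heat-inducible cytosolic chaperone that binds HSFs, gave 15.98 and 15.83 in *bam1* heat, 14.16 and 14.96 in Col-0 heat, 7.32 and 7.97 in *bam1* control and 7.47 and 7.35 in Col-0 control arrays. That is a difference of 8.26 in *bam1* (adjusted P = 8.35e-05) and 7.15 in Col-0 (adjusted P = 0.000180). ROF2, an immunophilin of the complex of HSP90.1 and HSFA2, differed by 7.46 and 5.68, in *bam1* and Col-0. Its close relative ROF1 differed by 2.80 and 2.12, and MBF1C, a coactivator needed for thermotolerance, by 3.85 and 4.26, in the same order of genotypes. HSBP, which binds HSFs and dampens their activity, fell in *bam1* (−1.16, adjusted P = 0.0113). HSBP lost this call without *bam1* heat replicate 1 (−0.94), without *bam1* control replicate 2 (−0.98) and with the normexp correction (−0.88), each under 2-fold. Its value in Col-0 was −0.79 (adjusted P = 0.0432), under 2-fold. DREB2A, the activator of HSFA3, differed by −0.41 in *bam1* and 0.51 in Col-0 with overlapping groups on its brightest probe. Its other probes gave −1.02 (adjusted P = 0.0947) and −0.69 (adjusted P = 0.148) in *bam1*, without overlap, and 0.03 and 0.17 in Col-0, with overlap. Of the 8 probes of HSC70-1 the brightest was uncalled in both genotypes, and 1 dimmer probe was called higher (1.02 in *bam1* and 1.30 in Col-0). Over the 10 loci the median difference was 0.29 in *bam1* and 0.64 in Col-0.

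All 10 genes on a list of HSF targets were called higher under heat in both genotypes, with a median difference of 6.86 in *bam1* and 4.89 in Col-0. Of all tested probes, 11% were called higher in *bam1* and 11.4% in Col-0. HSP22, HSP21, APX2 and HSP17.6II had the largest fitted differences in *bam1*, although the fitted sizes rest on *bam1* control values not well above background. In Col-0 HSP18.2, a cytosolic small heat shock protein, had a larger fitted difference (6.35) than HSP17.6II (5.30). HSP22, a small heat shock protein of the endoplasmic reticulum, read 14.49 and 13.41 in *bam1* heat, 11.43 and 11.40 in Col-0 heat, 2.87 and 2.32 in *bam1* control and 4.65 and 2.30 in Col-0 control arrays. It was not well above background in controls, and its heat level was at least 968-fold higher in *bam1* and at least 118-fold higher in Col-0. By the same bound APX2, a cytosolic ascorbate peroxidase, was at least 315-fold higher in *bam1* and at least 38.8-fold higher in Col-0. HSP17.6II, a cytosolic small heat shock protein, was at least 178-fold higher in *bam1* and at least 14.8-fold higher in Col-0. The chloroplast chaperone HSP21 was at least 596-fold higher in *bam1*, and in Col-0, where 1 control array was well above background, its difference was 6.48. These 4 probes passed the filter through the heat arrays alone or nearly so. HSP70B in Col-0 (1.60, adjusted P = 0.0454) was the call nearest the threshold. It was lost with the normexp correction (0.96, adjusted P = 0.104, limma) and with no filter on dim probes (adjusted P = 0.0890, limma). Most fits that left out 1 array also lost it, with differences from 1.31 to 1.88.

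Target genes were also higher in *bam1* than in Col-0 under heat, by a median of 2.46, beside −0.02 over all probes. Both *bam1* heat arrays stood above both Col-0 heat arrays for 9 of the 10 targets, against 12.8% of probes. None was called by limma, and 9 of 10 had an unadjusted P below 0.05, against 3.27% of probes. Of the partners, ROF2 differed by 1.63, HSP90.1 by 1.35 and ROF1 by 0.76 under heat, again uncalled. MBF1C differed by −0.41 with overlapping groups. HSC70-1, a constitutive chaperone on the partners list, differed by 0.13 with overlapping groups.

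**Figure D4:**
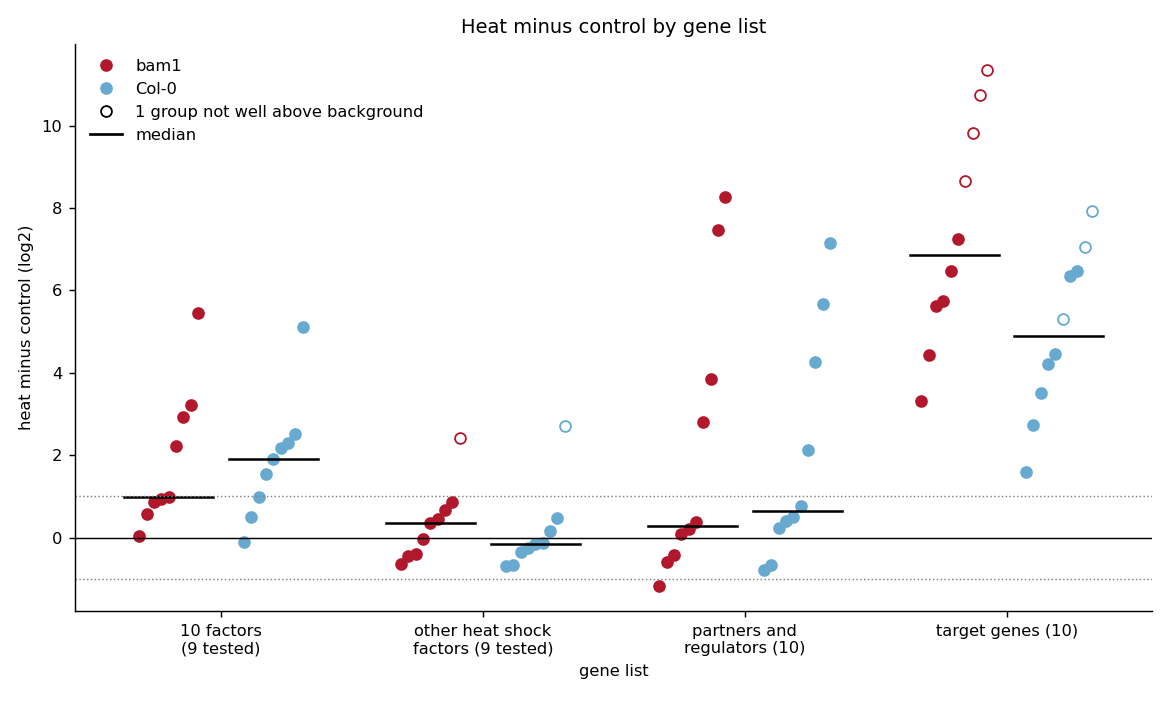
Heat minus control on the log2 scale (y axis) for every tested locus of 4 gene lists (x axis), *bam1* left of Col-0; each point is limma's fitted difference for 1 locus, black bars are list medians, dotted lines mark 2-fold, and hollow points had 1 group with no array well above background, so that their fitted value is no bound. Medians were 0.99 and 1.91 for the HSFs, 0.36 and −0.15 for the other family members, 0.29 and 0.64 for partners and 6.86 and 4.89 for targets.

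The profiles of the called HSFs over the 8 arrays were compared with those of 18361 loci outside the family, as a description in which all points share the same arrays and slides. Closest to HSFA2 were AT2G07795 (Pearson's r = 0.999) and AT3G01890 (r = 0.998). HSFA3 was closest to HSP60 (AT3G23990), a chaperonin, at r = 0.995 and to AT1G17630 at r = 0.994. HSFA7A was closest to AT1G58170 and to ABH1 (AT2G13540), a subunit of the nuclear cap-binding complex, both at r = 0.985. For HSFB1 they were FBA6 (AT2G36460), a fructose-bisphosphate aldolase, at r = 0.998 and AT1G07400 at r = 0.997. HSFB2A was closest to AT3G49340 (r = 0.979) and AT4G22190 (r = 0.978), and HSFB2B to AT5G20740 (r = 0.995) and AT4G01390 (r = 0.986). AT4G22190 was also the fourth closest to HSFB2B (r = 0.982), and AT5G20740 the third closest to HSFB2A (r = 0.977). Among the HSFs themselves, r was 0.979 for HSFA2 with HSFA3 and 0.973 for HSFA2 with HSFB1, and it was 0.806 for HSFA2 with HSFB2A and 0.817 for HSFA2 with HSFB2B. HSFA1B stood apart, with r between −0.353 and 0.088 against the other 9.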

How the data were processed

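Per the file headers, the arrays were Agilent single-colour slides read by Feature Extraction 11.5.1.1, and the deposited files hold spot intensity that the authors' software had background-corrected. The authors also deposited a log2 table, of which 99.7% of values lay within 0.05 of 75th-percentile scaling after centring each probe on its median. For quantile normalization that share was 44.7%. Here, flagged outlier and control spots were left out, log2 processed intensity was averaged over the spots of a probe, and the averages were quantile-normalized. Quantile normalization is named in the study's methods, which describe its drought arrays and not these heat arrays. Probes for which some group had both of its arrays well above background (29615 of 43603) were fitted with limma 3.58.1 (R 4.3.3) as 4 group means, giving 4 residual degrees of freedom. P values were two-sided and adjusted by Benjamini-Hochberg over all tested probes. The brightest probe stood for a locus. Probes were assigned to loci through RefSeq accessions (34348 probes, 25410 loci), and no coordinates are given because the annotation builds differed.

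Replicate number marked the slide, and deviations from the group means correlated between arrays of a slide in all 6 pairs of groups (r = 0.282 to 0.628), so the number pairs the samples. Alternatives were another scaling, normexp with an offset of 50, the deposited log2 table, other filters, the slide as a block, other fits and tests, and leaving out each array. The members and lists were chosen with earlier results of these data known. Named are every member, up to 4 called loci of each other list by largest heat difference, BAM1, and the 2 loci with the profile most like each called member; HSBP, HSP70B, HSP18.2, DREB2A, HSC70-1, GORK, FAMA and the family members other than HSFA6B were added after their values were seen. The fit was tested on simulated data. Arrays limit precision by their number, 2 per group.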

Additional observations from a re-analysis of the deposited data

How the results depend on the processing

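The 2 arrays per group limit every comparison, and the equal-variance t-test of the study's methods rested on as few as 2 residual degrees of freedom. After Benjamini-Hochberg adjustment that t-test called 0 HSFs, 0 other family members, 0 partners and 0 targets in either genotype (4 of all probes in *bam1* and 37 in Col-0). Unadjusted, it called 2 HSFs (HSFB1 and HSFB2A) between *bam1* and Col-0 under heat, beside 103 of 29532 probes. It called the same 2 for the difference of the heat responses, beside 209 of 29455 probes. For heat against control in *bam1* it called 0 other family members, beside 5150 of 29527 probes. With no fold limit, 8 HSFs were called in *bam1*, and 2 other family members in each genotype (HSFA6B, with HSFA1E in *bam1* and HSFA8 in Col-0). Of the 29615 tested probes, that setting called 10893 in *bam1* and 10514 in Col-0. The normexp correction and the filter on all 8 arrays each left 0 other family members called in either genotype, and so did a fit of only the 2 groups in *bam1*. Of 29615 probes, the normexp correction called 3770 in *bam1* and 3631 in Col-0, and the fit of 2 groups called 6468 in *bam1*. The filter on all 8 arrays called 5146 of 25341 probes in *bam1* and 4972 in Col-0. It left 6 targets called in each genotype, since the other 4 were not tested. Elsewhere the cause was not tested. The slide as a replicate block called the same 4 HSFs in *bam1* and the same 6 in Col-0, beside 7104 and 6877 of 29615 probes. It changed no other call on the lists.

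Leaving out 1 array at a time left 1 group with 1 array. In both heat comparisons this changed which HSFs and other family members were called, and in Col-0 also which targets. In the comparisons of genotypes it led to no called HSF. Differences near 0 changed sign. Leaving out 1 array gave, for the difference of the heat responses, −0.083 to 0.22 for HSFA1A, −0.18 to 0.44 for HSFA1B, −0.45 to 0.19 for HSFA1D, −0.12 to 0.80 for HSFA2 and −0.0044 to 0.79 for HSFA3. Between *bam1* and Col-0 without stress it gave −0.40 to 0.22 for HSFA1B, −0.24 to 0.40 for HSFA1D, −0.17 to 0.62 for HSFA3, −0.059 to 0.37 for HSFB1, −0.10 to 0.68 for HSFB2A and −0.10 to 0.26 for HSFB2B. Under heat it gave −0.15 to 0.052 for HSFA1D, whereas HSFA1B kept its sign (0.01 to 0.08). For heat against control of HSFA1B it gave −0.27 to 0.35 in *bam1* and −0.29 to 0.10 in Col-0. The mean of all probes of a locus turned the difference of the heat responses of HSFA1A (−0.045), and for HSFA1B it turned heat against control in Col-0 (0.018) and *bam1* against Col-0 under heat (−0.0006).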
